A study of Rattus norvegicus with 287 samples.

Results

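Fabp6, Slc10a2, Lct, Fabp1, Fabp2 and Gata4 are 6 of the 32623 genes in the count table, and their RNA differs along the length of the rat small intestine. They were matched by symbol, and were selected on their measured intestinal levels, which had been seen to vary between the 29 intestine libraries of the series. Their intestinal levels and differences are therefore given as a description, with no test. The series holds 287 RNA libraries from 8 tissues of rats. Treated rats received pFUS, ultrasound focused through the skin on the porta hepatis (the hilum of the liver), and controls a sham with no energy.

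The intestine libraries came from 7 groups, all labelled 7 weeks. The labels of the pFUS groups give 3 minutes of stimulus at 1.1 MHz, and those of the controls give no stimulus. Obese ZDF rats, which develop diabetes, gave 5 control libraries (numbered 1 to 5) and 5 pFUS libraries (6 to 10). Lean Zucker rats gave 5 controls (11 to 15) and 3 pFUS libraries (16, 18 and 19). All of these rats were male. The DIO-stz rats gave 4 controls, of which 3 and 4 were female and 5 and 6 male, and 5 pFUS libraries, of which 7 to 10 were male and 11 female. DIO Diet Resistant rats with pFUS gave 2 libraries, both female, and have no control group of their own. All rats, controls included, were anaesthetised with isoflurane. The labels say intestine, and do not say which stretch was taken. The liver, muscle and adipose libraries used further below also include obese ZDF rats labelled 3 days or 4 weeks, with 4 libraries per group. These were 3-day controls, pFUS for 3 days (labelled AM only x1 or AM only x10) and pFUS for 4 weeks (AM only x10, AM & PM x1 or AM & PM x10).

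Bile acids made in the liver are taken up again almost wholly in the ileum, the last stretch of the small intestine. Slc10a2 is the transporter that carries them across the apical membrane of ileal enterocytes, and Fabp6 is the ileal protein that binds them in the cytosol. Lct is lactase, a brush border enzyme most abundant in the jejunum. Fabp1 (liver type) and Fabp2 (intestinal type) bind fatty acids in absorbing enterocytes, Fabp1 mostly in the proximal small intestine and also in liver, and Fabp2 more broadly along it. Gata4 is a transcription factor of the proximal small intestine that is absent from the terminal ileum, and in mice its loss lets the jejunum express ileal genes.

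The RefSeq promoter table for the GRCr8 build held 5 of the 6 genes. The 250 bases before each start site are shown because GATA factors bind the letters GATAA, and one of the genes compared here encodes such a factor. Capitals mark GATAA or its reverse complement TTATC. The windows are chr10:28569728-28569977 (minus strand) for Fabp6, chr16:91087839-91088088 (plus) for Slc10a2, chr13:42376873-42377122 (minus) for Lct, chr4:104749090-104749339 (plus) for Fabp1 and chr2:213724379-213724628 (plus) for Fabp2, each printed 5′ to 3′ on the gene's strand.
Fabp6: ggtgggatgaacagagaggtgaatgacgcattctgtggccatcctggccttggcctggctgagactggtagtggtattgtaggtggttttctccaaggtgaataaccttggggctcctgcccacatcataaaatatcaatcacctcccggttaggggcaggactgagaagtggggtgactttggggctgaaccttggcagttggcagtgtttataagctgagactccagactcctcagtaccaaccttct
Slc10a2: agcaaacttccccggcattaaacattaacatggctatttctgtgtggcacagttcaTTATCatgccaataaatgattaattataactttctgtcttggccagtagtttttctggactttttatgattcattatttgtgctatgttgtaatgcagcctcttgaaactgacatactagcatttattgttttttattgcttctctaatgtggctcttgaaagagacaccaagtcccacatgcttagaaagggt
Lct: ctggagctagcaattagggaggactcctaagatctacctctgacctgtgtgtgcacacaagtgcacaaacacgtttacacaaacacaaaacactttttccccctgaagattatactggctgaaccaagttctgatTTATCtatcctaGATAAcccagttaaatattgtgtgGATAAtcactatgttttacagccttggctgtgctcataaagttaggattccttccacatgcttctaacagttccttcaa
Fabp1: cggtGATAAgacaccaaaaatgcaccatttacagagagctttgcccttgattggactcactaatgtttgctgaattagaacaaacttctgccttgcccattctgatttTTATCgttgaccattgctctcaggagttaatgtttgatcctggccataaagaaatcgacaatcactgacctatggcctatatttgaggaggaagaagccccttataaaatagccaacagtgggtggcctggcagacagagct
Fabp2: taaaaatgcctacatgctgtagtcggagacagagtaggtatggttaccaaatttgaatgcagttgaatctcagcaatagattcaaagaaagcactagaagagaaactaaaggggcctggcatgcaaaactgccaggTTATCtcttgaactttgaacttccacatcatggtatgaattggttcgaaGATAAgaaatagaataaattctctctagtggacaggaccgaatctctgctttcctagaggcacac
The Lct window held 3 matches, starting at positions -115, -103 and -79 counted from the start site. Fabp1 held 2 (-246 and -142), Fabp2 held 2 (-114 and -65), Slc10a2 held 1 (-194) and Fabp6 held 0. Of 33469 RefSeq promoter windows of this length, 23.5% held the motif on either strand. The letters TTTAT, searched for CDX factors on both strands, were found in 39.3% of the promoters and in all 5 windows, and they overlap a GATAA match in Lct (-116) and in Fabp1 (-143). GTTAAT, one arm of the HNF1 site, was found in 6.45% of promoters, once in Slc10a2 (-227) and once in Fabp1 (-117). AGGTCA, one arm of nuclear receptor sites, was found in 14.1%, once in Lct (-210) and once in Fabp1 (-77). These matches describe the letters only, and no binding was measured.

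Total counts ran from 9411372 to 19041490 over the intestine libraries. Epithelial genes were abundant in all 29: the summed CPM (a gene's counts as a share of the library's total, scaled to 1 common total) of 9 epithelial markers ran from 9573 to 22725. No 2 libraries of a group were alike within sampling noise (50 pairs, lowest chi-square per degree of freedom 13.2). The intestine library labelled obese control 5 held 47.7 CPM of ENSRNOG00000030106, against 50.1 to 95.9 in the other lean libraries and 0.459 to 18.0 in the other obese ones. The library labelled lean control 14 held 1.10 CPM of it. For Slc35f6 the same libraries held 4.98 and 24.6 CPM, against 4.22 to 6.66 in other lean and 7.42 to 16.4 in other obese libraries. These genes were chosen after their values were seen, and in brain and liver the libraries numbered 5 and 14 lie on their labelled side for Slc35f6. Ifit1, an interferon-induced gene, was 0.115 CPM in the library labelled lean control 14, on its labelled side (0 to 0.136 in other lean and 12.1 to 160 in other obese libraries). It was 0 in the intestine of obese control 5, and also in that rat's brain, liver and muscle. In blood obese control 5 held 1.60 CPM of Ifit1, against 56.2 to 284 CPM in other obese rats. By ENSRNOG00000030106 and Slc35f6 both intestine libraries thus go against their labels. Ifit1 cannot decide between the labels, since the rat labelled obese control 5 held little of it in other tissues too. The 2 libraries were kept under their labels, and were also left out together. Obese pFUS 7 held 21936 CPM of pancreatic acinar markers and DIO-stz control 6 held 628, against a median of 16.0 over the 21 libraries with the least Fabp6. The rats differ between groups, and p-values measure the spread between these libraries.

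Fabp6 varied more than any other member. Its highest level was 36296 times its lowest, and its median over the 29 libraries was 1.99 CPM. In the obese controls 1 to 5 Fabp6 was 5687, 1.41, 0.790, 1.28 and 4.25 CPM. In obese pFUS 6 to 10 it was 2.30, 0.390, 0.578, 1.17 and 1.41 CPM. Obese control 1 thus stood apart from the other 9 obese libraries, which lay between 0.390 and 4.25 CPM.

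In lean controls 11 to 15 Fabp6 was 8719.5, 4.16, 3.60, 14139.9 and 1.21 CPM. In lean pFUS 16, 18 and 19 it was 1.15, 0.643 and 1.01 CPM. Lean control 11 and the library labelled lean control 14 held the most Fabp6 of the whole series. In DIO-stz controls 3 to 6 Fabp6 was 6893, 3744, 1.99 and 401 CPM. In DIO-stz pFUS 7 to 11 it was 114, 0.465, 5425, 0.936 and 6.62 CPM. The 2 Diet Resistant libraries held 1.03 and 2.09 CPM. High Fabp6 thus appeared in 1 or 2 libraries of each of 4 groups, and the rest of each group was lower.

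Above 1000 CPM of Fabp6 stood 6 of the 29 libraries: 1 of 5 obese controls, 2 of 5 lean controls, 2 of 4 DIO-stz controls and 1 of 5 DIO-stz pFUS libraries. Among ZDF and lean Zucker rats these were 3 of 10 controls and 0 of 8 with pFUS. Among DIO-stz controls both were the females. DIO-stz control 6 and DIO-stz pFUS 7 lay between 100 and 1000 CPM, and the other 21 libraries lay between 0.390 and 6.62 CPM. The numbers 1000 and 100 are limits set here to describe the libraries, and these sets were made by Fabp6 itself.

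**Figure D1:**
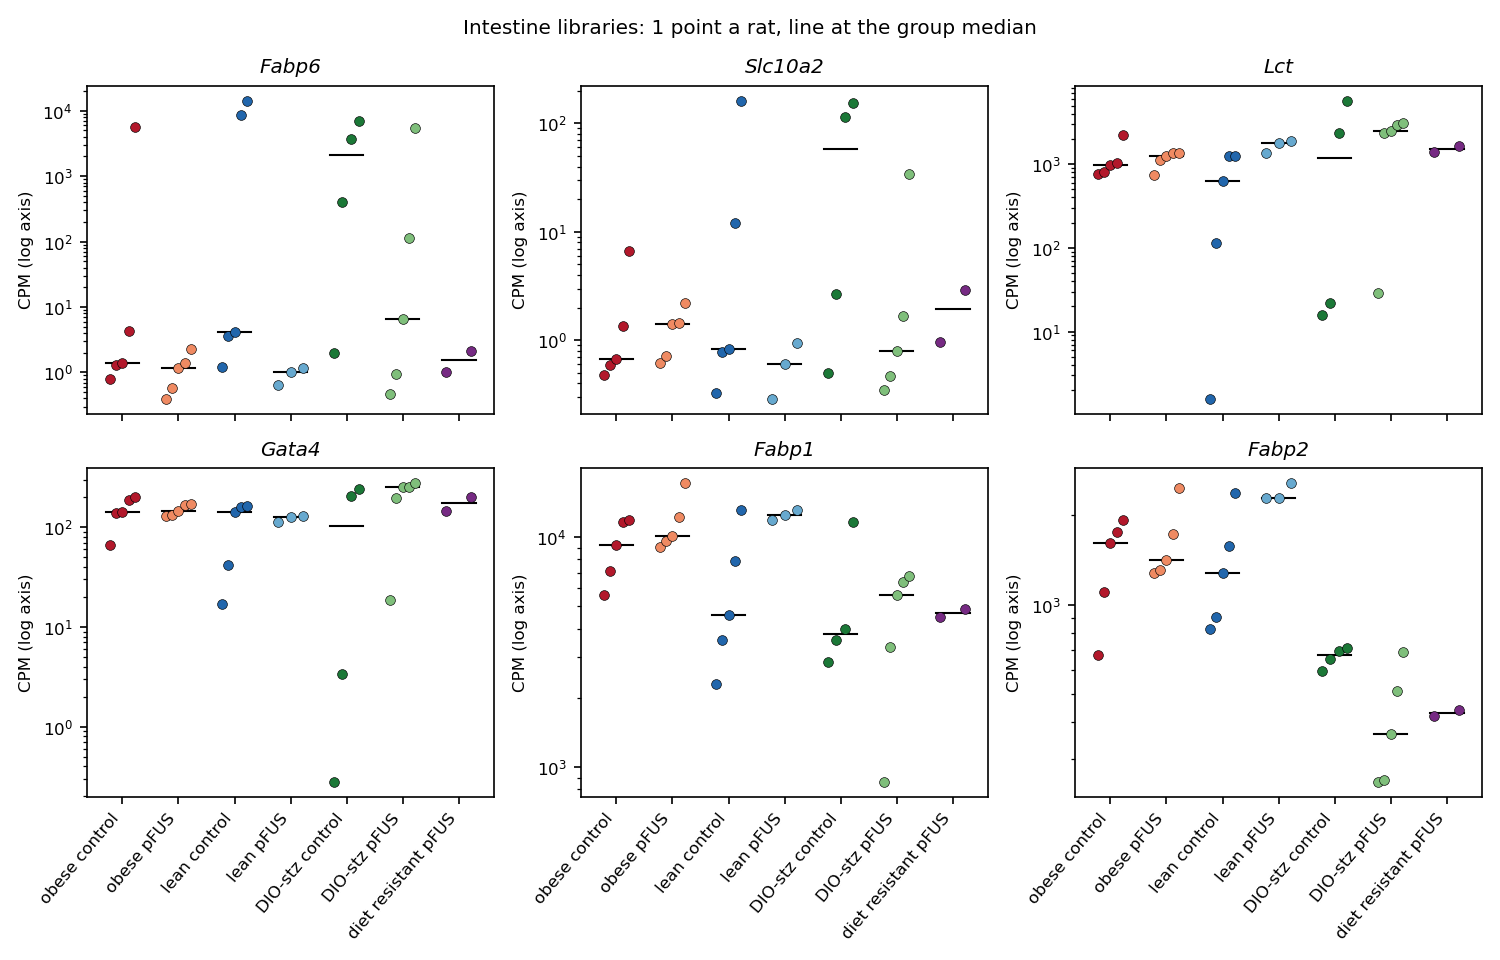
CPM of the 6 genes in 29 intestine libraries on log axes, by group, with 1 point for each library and a line at the group median. Fabp6 spans orders of magnitude within the obese control, lean control and both DIO-stz groups, Slc10a2 runs from 0.474 to 6.71 CPM in obese controls and from 0.327 to 161 CPM in lean ones, and the obese pFUS and lean pFUS points stay together.

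Slc10a2, the uptake transporter, followed Fabp6 in its high libraries but not in proportion. In the obese controls 1 to 5 Slc10a2 was 6.71, 1.35, 0.474, 0.673 and 0.597 CPM, and in obese pFUS 6 to 10 it was 0.612, 0.714, 1.44, 1.41 and 2.19 CPM. In lean controls 11 to 15 it was 11.9, 0.833, 0.327, 161 and 0.784 CPM, and in lean pFUS 16, 18 and 19 it was 0.610, 0.286 and 0.938 CPM. In DIO-stz controls 3 to 6 Slc10a2 was 113, 154, 0.498 and 2.68 CPM, and in DIO-stz pFUS 7 to 11 it was 0.345, 0.797, 33.9, 0.468 and 1.68 CPM. The 6 libraries above 1000 CPM of Fabp6 held the 6 highest Slc10a2 levels, 6.71 to 161 CPM. Within them Slc10a2 was not ordered by Fabp6: lean control 11, second in Fabp6, held less Slc10a2 than DIO-stz control 4, which held the least Fabp6 of the 6.

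Lct, the jejunal lactase, was low in 5 of these 6 libraries. In the obese controls 1 to 5 Lct was 1018, 752, 812, 2205 and 980.3 CPM, and in obese pFUS 6 to 10 it was 1104, 731, 1374, 1370.2 and 1265 CPM. In lean controls 11 to 15 it was 114, 1265, 629, 1.56 and 1250.0 CPM, and in lean pFUS 16, 18 and 19 it was 1870.4, 1761 and 1365 CPM. In DIO-stz controls 3 to 6 Lct was 21.9, 15.9, 2365 and 5677 CPM, and in DIO-stz pFUS 7 to 11 it was 2904, 2479, 29.0, 2363 and 3130.1 CPM. The Diet Resistant libraries held 1409 and 1639 CPM. Obese control 1 was the exception among libraries with high Fabp6, since its Lct lay within the 629 to 3130.1 CPM of the 21 libraries low in Fabp6.

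Gata4 was lower in all 6 libraries above 1000 CPM of Fabp6 than in any of the other 23. In the obese controls 1 to 5 Gata4 was 67.1, 199, 186, 139.6 and 142 CPM, and in obese pFUS 6 to 10 it was 129, 170.4, 168, 134 and 147 CPM. In lean controls 11 to 15 it was 42.1, 161, 164, 17.2 and 142 CPM, and in lean pFUS 16, 18 and 19 it was 128, 131 and 113 CPM. In DIO-stz controls 3 to 6 Gata4 was 3.40, 0.282, 241 and 204 CPM, and in DIO-stz pFUS 7 to 11 it was 252, 276, 18.9, 196 and 253 CPM. The Diet Resistant libraries held 144 and 203 CPM. Between the lowest of the other 23 libraries, at 113 CPM, and obese control 1, at 67.1 CPM, no library was found.

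**Figure D2:**
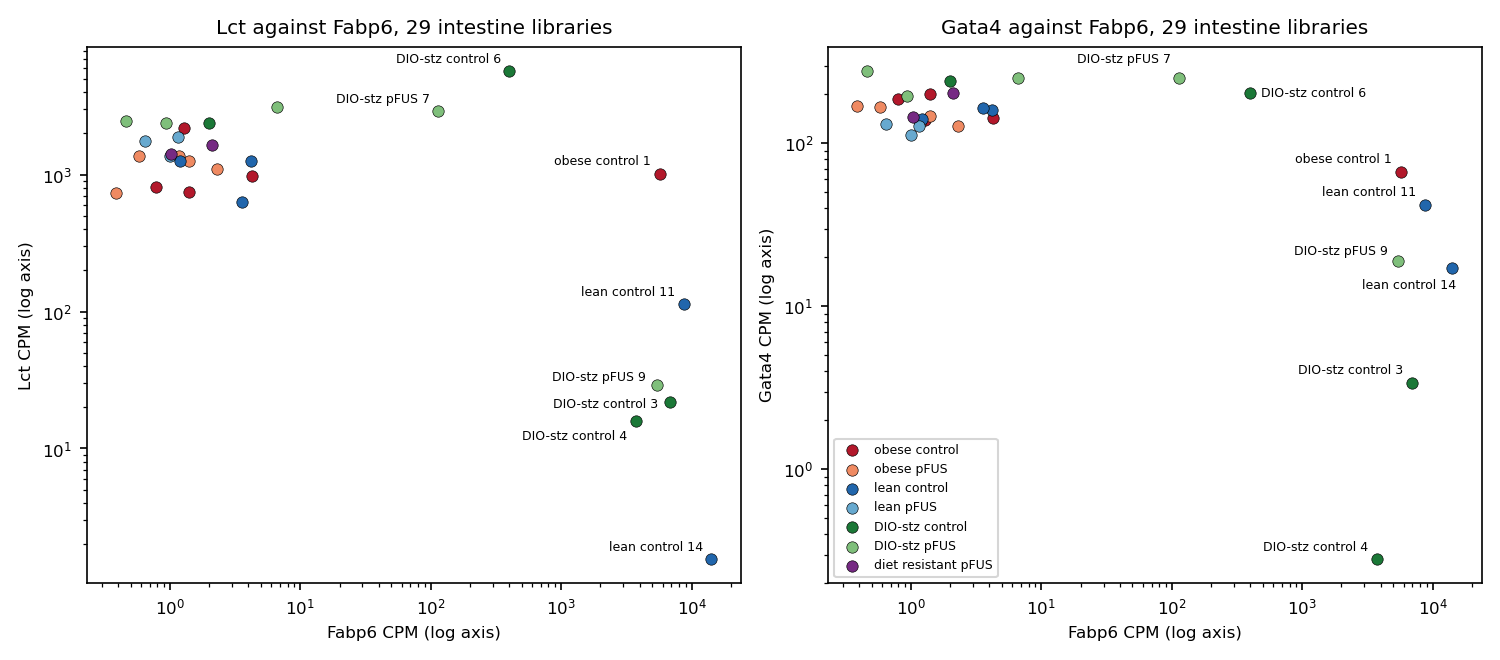
CPM of Lct (left) and Gata4 (right) against CPM of Fabp6 on log axes, 1 point for each of 29 intestine libraries, coloured by group. Libraries above 1000 CPM of Fabp6 lie low in Gata4, obese control 1 keeps 1018 CPM of Lct, and DIO-stz control 6 and DIO-stz pFUS 7 hold over 100 CPM of Fabp6 with high Lct and Gata4.

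Fabp1, the liver-type protein, varied less, with a highest level 19.8 times its lowest. In the obese controls 1 to 5 Fabp1 was 5610.1, 9225, 7117, 11834 and 11642 CPM, and in obese pFUS 6 to 10 it was 17146, 10136, 9105, 12288 and 9666 CPM. In lean controls 11 to 15 it was 2305, 7873, 4584, 3557 and 13071 CPM, and in lean pFUS 16, 18 and 19 it was 11845, 13148 and 12426 CPM. In DIO-stz controls 3 to 6 Fabp1 was 3985, 2853, 11611 and 3576 CPM, and in DIO-stz pFUS 7 to 11 it was 5579, 3338, 865, 6389 and 6756 CPM. The lowest 2 of 29 were DIO-stz pFUS 9 and lean control 11, both high in Fabp6, and obese control 1 lay inside the range of the low-Fabp6 libraries, 3338 to 17146 CPM.

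Fabp2, the intestinal-type protein, did not separate the libraries by Fabp6. In the 6 high libraries Fabp2 ran from 256 to 1755 CPM and in the 21 low ones from 252 to 2566 CPM. Its lowest levels were in DIO rats. In the obese controls 1 to 5 Fabp2 was 1755, 1099.7, 676, 1925 and 1608 CPM, and in obese pFUS 6 to 10 it was 2472, 1310.0, 1279, 1725 and 1408 CPM. In lean controls 11 to 15 it was 826, 1571, 909, 1283 and 2381 CPM, and in lean pFUS 16, 18 and 19 it was 2297, 2566 and 2293 CPM. In DIO-stz controls 3 to 6 Fabp2 was 713, 598, 656 and 699.5 CPM, and in DIO-stz pFUS 7 to 11 it was 365, 252, 256, 692 and 512 CPM. The Diet Resistant libraries held 421 and 441 CPM, so every DIO library but DIO-stz controls 3 and 6 and pFUS 10 lay below the lowest ZDF or lean Zucker library, at 676 CPM.

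Some genes of the ileum that the rule did not use were also high in the 6 libraries. The list of ileal and bile acid genes held 16 members, 15 of them in the table. In 6 of the 15 each high library lay above all 21 low libraries, and in 0 each lay below. Over 9948 other genes, 1.17% lay wholly above and 0.734% wholly below. Those genes had a symbol, a mean of at least 5 CPM and a test in the fit of ZDF and lean Zucker rats. The lists were not held to that mean. Fgf19 (mean 4.23 CPM) of the ileal list and Onecut2 (3.14 CPM) of the proximal list lie under it. Since the libraries were sorted by Fabp6, these counts describe them and are no test.

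Slc51a and Slc51b form the basolateral exporter of bile acids, and both were among the 6. Slc51a was 614 to 1859 CPM in the high libraries and 154 to 293 CPM in the low ones, and Slc51b was 89.5 to 222 CPM against 13.9 to 45.7 CPM. Nr1h4, the bile acid receptor FXR, was 40.4 to 118 CPM against 16.0 to 32.3 CPM. Fgf19, listed under the human name of the ileal hormone that signals bile acid load to the liver, was 0.137 to 66.3 CPM against 0 in each of the 21. Nts (neurotensin) and Pyy (peptide YY), hormones of the distal gut, completed the set. Nts was 63.9 to 185 CPM against 1.86 to 53.4 CPM, and Pyy was 10.4 to 45.2 CPM against 0 to 2.27 CPM. Cubn, a part of the ileal receptor for vitamin B12, did not separate the libraries: it was 71.3 to 542 CPM against 3.56 to 531 CPM. The amino acid transporter genes Slc7a9 and Slc3a1 of the list overlapped too. Abcc2, an apical exporter of organic anions named by its mean CPM, was 20.9 to 79.3 CPM against 52.4 to 595 CPM. It was the 1 gene of the list with a lower median in the high libraries.

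Several proximal genes showed the opposite order. Of 20 genes of the duodenum and jejunum, 8 lay below all 21 low libraries in each of the 6 and 0 lay above. Pdx1, the duodenal transcription factor, was 0.0686 to 0.134 CPM against 0.393 to 43.3 CPM. Onecut2, another transcription factor, was 0 in all 6 against 0.208 to 12.2 CPM. Rbp2, which binds retinol in enterocytes, was 393 to 1233 CPM against 2140.2 to 6413 CPM, and Bco1, which cleaves beta-carotene, was 22.7 to 60.0 CPM against 293 to 1435 CPM. The hormones Cck (cholecystokinin) and Ghrl (ghrelin), the fructose kinase Khk and the trehalase Treh made up the 8. Apoa4, an apolipoprotein of chylomicrons and the most abundant gene of the list, overlapped at 172 to 3403 CPM against 1664 to 16100.0 CPM. Sct (secretin), a hormone of the duodenum, ran the other way, at 11.1 to 33.0 CPM in the high libraries against 3.24 to 14.9 CPM. Tmprss15 (enteropeptidase), an enzyme of the duodenum from another list, was 0 to 0.289 CPM against 12.8 to 1114 CPM. Apoa4 and Rbp2 were named by their mean CPM, and Pdx1 and Ghrl by their rho with Fabp6 in these libraries. The others were chosen after their values were seen.

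The 2 libraries between 100 and 1000 CPM of Fabp6 carried both patterns. DIO-stz control 6 and DIO-stz pFUS 7 held 5677 and 2904 CPM of Lct and 204 and 252 CPM of Gata4. They also held 2.27 and 1.31 CPM of Fgf19, which was 0 in the 21 low libraries, and 3.97 and 3.31 CPM of Tmprss15, below all 21. Their Pdx1 was 0.117 and 0.345 CPM, also below all 21. Lean controls 12 and 13, with 4.16 and 3.60 CPM of Fabp6, had the lowest Pdx1 of the 21, 0.625 and 0.393 CPM. Obese control 1 differed from the other 5 high libraries by its Lct, by some other proximal genes and by Cr2, a complement receptor of B cells, at 143 CPM. It held 3403 CPM of Apoa4 against 172 to 1035 CPM in the other 5, and 55.4 CPM of Treh against 8.37 to 13.4 CPM. Slc46a1 of the proximal list was 74.1 CPM against 1.76 to 9.46 CPM. Pdx1 stayed low in obese control 1, at 0.134 CPM. For this comparison of obese control 1 these genes were named after their values were seen. The markers of B cells and Peyer patches summed to 410 CPM in obese control 1 and to 10.7 to 80.9 CPM in the other 5. The part of B cells and Peyer patches in the levels of Fabp6 and Lct was not tested.

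**Figure D3:**
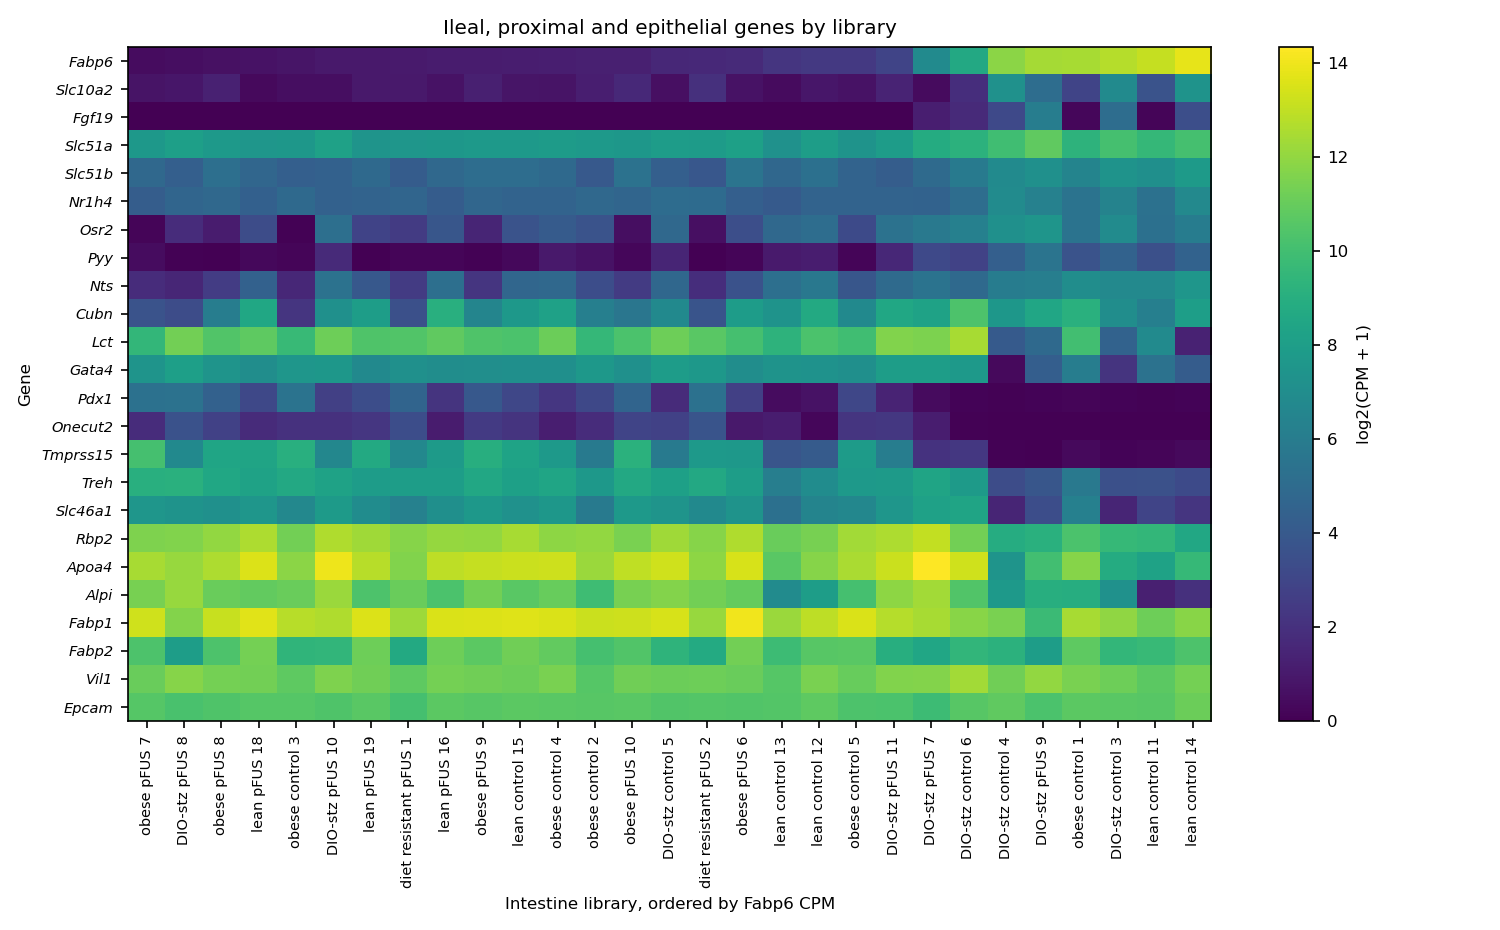
Heat map of log2(CPM + 1) of ileal, proximal and epithelial genes (rows) in 29 intestine libraries (columns), ordered from the least Fabp6 at the left to the most at the right. The last 6 columns are high in Slc51a, Slc51b and Nr1h4 and low in Gata4, Pdx1, Rbp2 and Treh, while Vil1 and Epcam are high throughout.

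Markers of other cells and of the colon moved with Fabp6 in part. Among 10 colon genes in the table, 3 lay above all 21 low libraries in each of the 6, Hsd11b2 and Scnn1b among them. Aqp8 alone lay below. Over the 9948 genes used before, 1.17% lay wholly above and 0.734% wholly below. Scnn1b was near the floor, at 0.335 to 1.62 CPM against 0 to 0.327 CPM. Hoxb13 and Hoxd13, which mark the hindgut, were at 0 in all libraries. Car1 of the list was 187, 39.6 and 11.1 CPM in DIO-stz control 4, DIO-stz control 3 and the library labelled lean control 14. It was 0.0686 to 0.301 CPM in the other high libraries, against 0 to 1.17 CPM in the 21. Best2 was 0 to 2.23 CPM in the high libraries against 0 to 0.144 CPM. Scnn1b, Car1 and Best2 were named after their values were seen. The summed goblet and Paneth markers were 15047 to 23830 CPM in the 6 libraries and 3963 to 16085 CPM in the 21. The 9 epithelial markers summed to 14996 to 22725 CPM against 9573 to 16727 CPM, and acinar markers to 16.1 to 37.9 CPM against 9.50 to 21936 CPM. Their part in the levels of the 6 genes was not tested. In whole tissue, fewer cells of a type and less RNA per cell cannot be told apart.

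Among other transcription factors of the gut, none of 14 lay wholly above or below as Gata4 did. Gata6 was 18.0 to 54.4 CPM in the high and 30.3 to 78.6 CPM in the low libraries, and Gata5 was 45.3 to 266 against 40.3 to 164 CPM. Hnf4a, an enterocyte factor, was 435 to 1310.0 against 356 to 869 CPM. Of 12 other lipid-binding proteins of the Fabp family, Rbp2 alone lay wholly to one side. Of 15 lipid absorption genes Scarb1 alone did, at 11.6 to 39.1 against 116 to 919 CPM. Gata5 and Gata6 thus overlapped between these libraries where Gata4 did not.

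Over all 29 libraries and 9948 genes, the gene most like Fabp6 by Spearman's rho on log2(CPM + 1) was Tmigd1, an adhesion protein of enterocytes, at 0.847. It was 370.3 to 1483 CPM in the 6 high libraries and 0 to 24.1 CPM in the 21 low ones. Tubb2b (0.829), Acot7 (0.820) and Nenf (0.806) were also among the 5 highest. The most opposed were Paox, a polyamine oxidase, at -0.882, Pdx1 at -0.849, Bpnt1 at -0.821, and Ghrl and Txnrd1 at -0.814. Within the 21 low libraries the values were 0.624 for Tmigd1 and -0.758 for Paox, where Fabp6 itself spans only 0.390 to 6.62 CPM. For Lct the 3 likest included Slc9a3 (0.912) and Scarb1 (0.911), and for Gata4 they were Pgam1 (0.922), Ldha (0.888) and Zfpm1 (0.878), the last a cofactor of GATA proteins. All points share the libraries and the cohorts. On the second principal component of these genes, which held 22.1% of the variance against 35.2% for the first, the 6 high libraries had the 6 highest scores.

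Group differences in the 6 genes were then fitted with all libraries, as log2 fold changes with standard errors (SE) from edgeR. These differences were used to choose the genes, so they are given with no test. For obese against lean controls Fabp6 differed by -1.97 ± 2.24 and Slc10a2 by -4.07 ± 1.35. The proximal Lct differed by 0.82 ± 0.85, Gata4 by 0.48 ± 0.44, Fabp1 by 0.52 ± 0.39 and Fabp2 by 0.02 ± 0.33. Each group held libraries high in Fabp6, so the Fabp6 ranges overlap. At an adjusted p of 0.05 edgeR called 2 of 14709 genes in all (0.0136%). Without the library labelled lean control 14 the Slc10a2 difference was -0.83 and that of Fabp6 -0.96, and without obese control 1 that of Fabp6 was -11.11. The Fabp2 difference ran from -0.12 to 0.34 without 1 library at a time.

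For pFUS against control in obese rats Fabp6 differed by -9.63 ± 3.21. Obese control 1 decides this value: without it the difference was -0.47. Slc10a2 differed by -0.38 ± 1.39, Lct by 0.27 ± 0.85, Gata4 by 0.30 ± 0.44, Fabp1 by 0.66 ± 0.39 and Fabp2 by 0.51 ± 0.33. Without 1 library at a time Slc10a2 ran from -0.62 to 0.93, the latter without obese control 1, and Lct from 0.12 to 0.65. Over all genes edgeR called 0.0612%. This comparison and the one between obese and lean controls share the obese controls.

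For pFUS against control in lean rats Fabp6 differed by -12.15 ± 4.48 and Slc10a2 by -5.68 ± 1.91. Lct differed by 1.39 ± 0.96, Fabp1 by 1.03 ± 0.44, Fabp2 by 0.83 ± 0.38 and Gata4 by 0.30 ± 0.51. The 3 lean pFUS libraries lay below all lean controls in Fabp6, by a small margin where the control was lean control 15 (1.21 against 1.15 CPM). Without 1 library at a time Slc10a2 ran from -6.08 to -2.43 and Gata4 from 0.05 to 0.53. Over all genes edgeR called 0.00680%. The difference between the pFUS effects, obese minus lean, was 2.52 ± 3.97 for Fabp6, 5.31 ± 2.28 for Slc10a2 and 0.00 ± 0.68 for Gata4, where 0.00680% of all genes were called. Without 1 library at a time these ran from 1.48 to 11.64, from 2.05 to 6.57 and from -0.24 to 0.25.

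For pFUS against control in DIO-stz rats, with sex in the fit, Fabp6 differed by 1.12 ± 3.95 and Slc10a2 by 0.66 ± 2.44. The 2 female DIO-stz controls were the 2 above 1000 CPM of Fabp6. Sex and high Fabp6 thus cannot be told apart among these controls, and the sex term bears on these differences. Lct differed by 0.87 ± 1.79, Gata4 by 1.60 ± 1.47, Fabp1 by -0.16 ± 0.61 and Fabp2 by -0.60 ± 0.35. Fabp6 differed by -3.84 without DIO-stz control 5, by -3.80 without DIO-stz pFUS 9 and by 2.44 without DIO-stz pFUS 11. Without 1 library at a time Slc10a2 ran from -3.36 to 2.21, Lct from -1.07 to 2.26, Gata4 from -0.24 to 2.31 and Fabp1 from -0.84 to 0.57. The sign of these 5 differences thus rests on single libraries, and Fabp2 stayed below 0 (-0.87 to -0.44). edgeR called 0 of 14833 genes in this comparison (0%), 513 had an unadjusted p under 0.05, and DESeq2 called 15.

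The differences changed without the libraries above 1000 CPM of Fabp6, an alternative chosen after seeing the data. Fabp6 then differed by -0.58 ± 0.60 for obese against lean controls, by -0.44 ± 0.56 for pFUS in obese rats, by -1.56 ± 0.68 for pFUS in lean rats and by -2.45 ± 2.25 in DIO-stz rats. Slc10a2 differed by 0.25 ± 0.51, 0.95 ± 0.43, -0.02 ± 0.56 and -1.60 ± 0.84 in the same order, so its sign turned in 3 of the 4. Gata4 differed by 0.11 ± 0.13, 0.12 ± 0.12, -0.24 ± 0.14 and 0.14 ± 0.24. Leaving out libraries by their Fabp6 narrows its range by construction.

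The spread within groups changed by the same step. In the fit of ZDF and lean Zucker rats Fabp6 had a residual standard deviation of 4.56 on the log2 scale, the second largest of 14709 genes, and 0.889 without the 3 libraries above 1000 CPM. Lct went from 2.22 to 0.537, Slc10a2 from 2.10 to 0.643 and Gata4 from 0.866 to 0.166. Fabp1 went from 0.655 to 0.512 and Fabp2 from 0.560 to 0.585, so Fabp2 did not narrow. The biological coefficient of variation over all genes, edgeR's common measure of spread, went from 0.301 to 0.245. In the fit of DIO rats Fabp6 had a residual standard deviation of 5.10, the third largest of 14833, and still 4.09 without the 3 libraries above 1000 CPM, where DIO-stz control 6 and DIO-stz pFUS 7 remain. The coefficient went from 0.384 to 0.358.

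The genes called in the intestine changed with the libraries used. For pFUS in obese rats 9 genes passed with all libraries. Without the 3 libraries above 1000 CPM of Fabp6, 359 passed, 136 higher and 223 lower with pFUS, and all 9 were among them. With the library labelled obese control 5 left out as well, 332 passed. With obese pFUS 7, the library rich in acinar markers, left out as well, 1 passed, RT1-T24-1 of the rat major histocompatibility complex. With all other libraries kept, 0 passed without obese pFUS 7, without obese control 2 or without obese pFUS 9, and 46 without obese control 4, so the count rested on single libraries.

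For obese against lean controls 2 genes passed with all libraries, 0 without those above 1000 CPM of Fabp6, 198 without the libraries labelled obese control 5 and lean control 14, and 190 without obese control 5 and those above 1000 CPM. Leaving out lean control 15 alone gave 168. For pFUS in lean rats 1 gene passed with all libraries and 0 without those above 1000 CPM, but 173 without lean control 15. At 0 called by edgeR, 1802 and 991 genes had an unadjusted p under 0.05 in these comparisons, and DESeq2 with all libraries called 144 and 19.

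**Figure D4:**
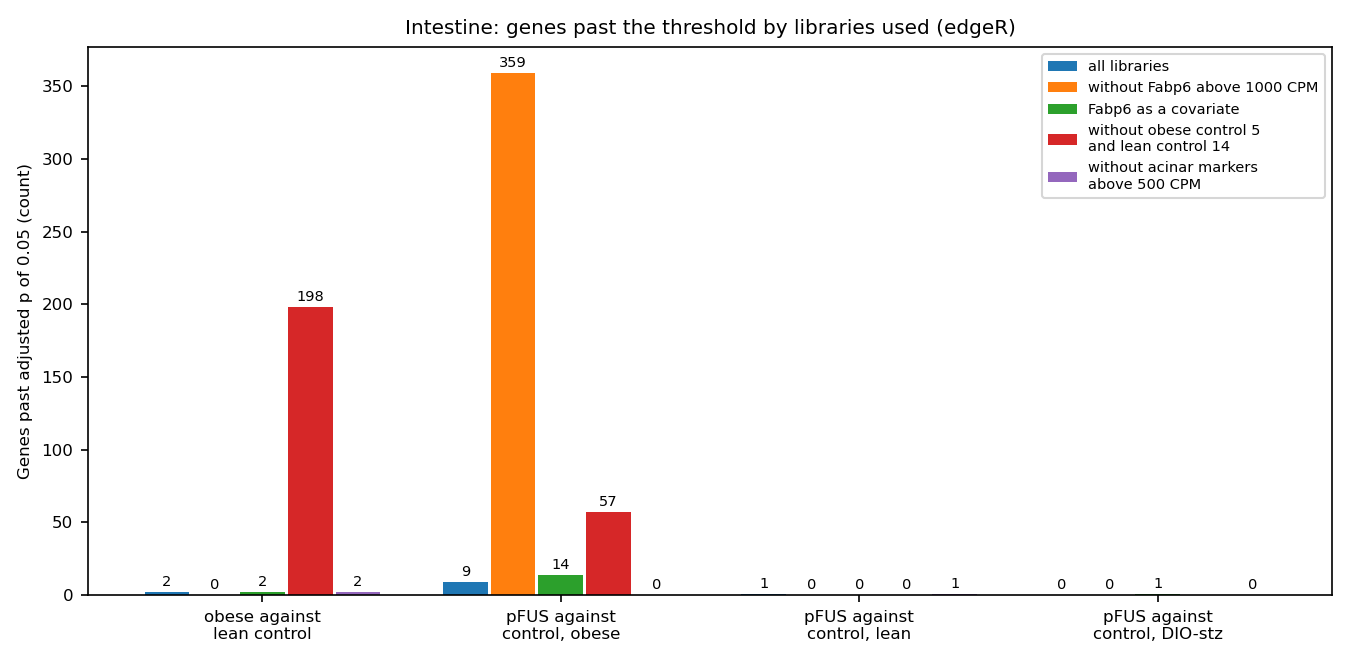
Number of genes past an adjusted p of 0.05 by edgeR in 4 intestine comparisons (horizontal axis), with bars for all libraries, for 3 ways of leaving libraries out and for log2 Fabp6 as a covariate. For pFUS in obese rats the bar rises from 9 to 359 without libraries above 1000 CPM of Fabp6 and is 0 without obese pFUS 7, which is rich in acinar markers.

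The genes that edgeR called with all libraries were not members of the position lists. Between obese and lean controls Ifit1 was higher in obese rats by 10.68 ± 1.58 (adjusted p = 0.0345), and Gcnt3, a mucin glycosyltransferase, was lower by a log2 change of -0.91 ± 0.12 (adjusted p = 0.00950). Gcnt3 kept its call in 10 of 10 fits that left out 1 library and Ifit1 in 5. The edgeR adjusted p of Gcnt3 reached 0.0453 (without lean control 12). Neither gene was called with only the 2 groups in the fit or without the libraries above 1000 CPM of Fabp6. With log2 Fabp6 as a covariate Gcnt3 was called and Ifit1 was not. With pFUS in obese rats Sgk1, a kinase induced by glucocorticoids, rose by 2.51 ± 0.38 (adjusted p = 0.0198), Slc19a1 by 1.50 ± 0.26 and Cipc by 1.41 ± 0.24, and Gramd1a, Uhrf2 and Tp53bp1 fell by 0.81, 0.71 and 0.67. None of the 9 kept its call without obese pFUS 7. Aloxe3, a lipoxygenase, rose with pFUS in lean rats by 1.79 ± 0.24 (adjusted p = 0.0108), and its effect differed between obese and lean by -2.55 ± 0.33 (adjusted p = 0.00542). The call in lean rats held in 6 of 8 fits that left out 1 library (edgeR adjusted p = 0.190 without lean pFUS 16). The call on the difference held in 18 of 18. Neither call held without the libraries above 1000 CPM of Fabp6. The lean call was also lost with only the 2 groups in the fit and with log2 Fabp6 as a covariate.

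By edgeR with all libraries the ileal, proximal, brush border and lipid absorption lists had no member past the threshold in any of the 5 comparisons. DESeq2 called some. With pFUS in obese rats it put higher the fructose transporter Slc2a5 of the proximal list (1.52 ± 0.41, adjusted p = 0.0143), the brush border enzyme Mgam (0.88 ± 0.28, adjusted p = 0.0415) and 3 of 15 lipid absorption genes. These were Acsl5, Slc27a4 and Mogat2, the last at 0.84 ± 0.26 (adjusted p = 0.0341). edgeR also called Mogat2 with only the 2 groups in the fit (adjusted p = 0.0387), beside 29 of 13793 genes called. Between obese and lean controls DESeq2 called Adh1 of the proximal list higher (3.64 ± 0.81, adjusted p = 0.00521), and 4 of 8 B cell and Peyer patch markers higher, Cr2, Ms4a1 and Cd79b among them. The 8 markers summed to 410, 10.1, 12.8, 15.5 and 125 CPM in obese controls 1 to 5. In lean controls 11 to 15 they summed to 10.7, 9.02, 7.20, 80.9 and 7.66 CPM. The high obese sums were thus those of obese control 1 and the library labelled obese control 5. Most members of the proximal list lay above 0. Its median log2 difference was 0.71 for obese against lean controls (18 of 20 above 0), 0.75 for pFUS in obese rats (20 of 20), 0.89 for pFUS in lean rats (19 of 20) and 1.34 in DIO-stz rats (20 of 20). The medians of all genes tested were -0.01, -0.04, -0.06 and -0.01. Without the libraries above 1000 CPM of Fabp6 the proximal medians were 0.28, 0.68, 0.49 and 0.70. These comparisons share controls, the obese ones between the first and second and the lean ones between the first and the third, and 5 of the 6 libraries high in Fabp6 were controls.

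The ileal list had medians of -0.54, -0.06, -0.58 and -0.32 in the same order with all libraries. Without those above 1000 CPM they were -0.25, 0.23, 0.01 and -0.57. In pFUS against control of obese rats, Slc51b then passed the threshold, at 1.05 ± 0.21 (adjusted p = 0.0307), with Mogat2, an enzyme of triglyceride resynthesis, at 0.79 ± 0.18 and Sct at 0.87 ± 0.20. These genes were among 359 of 14524 called in that fit. Slc51b was 14.9, 19.5, 29.1 and 22.6 CPM in obese controls 2 to 5, and 45.7, 28.2, 36.6, 33.9 and 40.8 CPM in obese pFUS 6 to 10. These values overlapped in 1 pair, obese control 4 and obese pFUS 7. Slc51b also passed with log2 Fabp6 as a covariate (1.14 ± 0.19, adjusted p = 0.0299) and with obese control 5 left out too (1.08 ± 0.24, adjusted p = 0.0350). Those 2 fits called 14 of 14709 and 332 of 14451 genes. Slc51b was less stable in other fits. It did not pass with all libraries (0.35 ± 0.56, adjusted p = 0.778) or with obese pFUS 7 left out too (1.12 ± 0.22, adjusted p = 0.0599). Mogat2 and Sct passed in neither of the fits that left out obese control 5 or obese pFUS 7 as well.

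In the liver, which the choice of the genes did not use, 4 of the 6 were measured well enough to be tested. Fabp6 was at 0 in 53 of 55 liver libraries and Lct in 53, and neither passed the filter on low counts. The liver held 1091 to 4298 CPM of Fabp1, which carries fatty acids in hepatocytes, in all 55 libraries, those of the 3-day and 4-week groups included. Gata4 ran from 14.0 to 55.1 CPM, Slc10a2 from 0 to 5.55 CPM and Fabp2 from 0.0597 to 2.16 CPM.

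Fabp2 was higher in the livers of obese than of lean controls. It was 0.875, 1.64, 0.679, 0.914 and 0.209 CPM in obese controls 1 to 5, and 0.189, 0.224, 0.198, 0.0851 and 0.0727 CPM in lean controls 11 to 15. These values rest on 9 to 59 counts in the obese and 1 to 4 in the lean libraries. Obese control 5 overlapped the lean range and the other 4 lay above it. The log2 difference was 2.53 ± 0.64 (edgeR adjusted p = 0.0120). All lean control counts are below the filter's minimum of 10. Counts were 8 to 35 in obese pFUS and 1 to 12 in lean pFUS livers. The gene thus met the filter mostly through the obese groups, where it is high, so the adjusted p with the filter is no support by itself. With only the obese and lean controls in the fit it was not tested. With no filter the difference was 2.51 ± 0.62 (edgeR adjusted p = 0.0125), and without 1 library at a time the adjusted p reached 0.0445 (without obese control 2). In this comparison 13.0% of the 12585 genes tested passed.

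The other 3 genes did not pass between obese and lean livers. Slc10a2 differed by 1.00 ± 0.56 (adjusted p = 0.241), Gata4 by -0.32 ± 0.25 and Fabp1 by 0.02 ± 0.29. Fabp1 was 2693, 2961, 1478, 2554 and 1901 CPM in obese controls 1 to 5 and 2529, 2944, 2566, 2589 and 1324 CPM in lean controls 11 to 15, so the groups overlapped.

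With pFUS none of the 4 genes passed in the liver of any cohort. In obese rats Fabp2 was 0.514, 0.440, 1.09, 0.725 and 0.415 CPM with pFUS, a difference of -0.56 ± 0.52, beside 0.302% of genes called. In lean rats it was 0.376, 0.958, 0.325, 0.131 and 0.0597 CPM with pFUS (16 to 20), a difference of 1.46 ± 0.73 (adjusted p = 0.234), beside 0.0556%. Fabp1 differed by -0.01 ± 0.29 in obese rats, 0.49 ± 0.29 in lean rats and -0.15 ± 0.27 in DIO-stz rats, where 1.00% of genes were called. Gata4 differed by -0.07 ± 0.25, 0.20 ± 0.25 and 0.42 ± 0.27, and Slc10a2 by -0.27 ± 0.53, -0.78 ± 0.67 and 0.87 ± 0.91. The number of genes called for pFUS in lean liver, 7, became 4888 without lean control 15, 629 without lean pFUS 20 and 237 without lean pFUS 19, and the 4 genes passed in none of these fits.

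**Figure D5:**
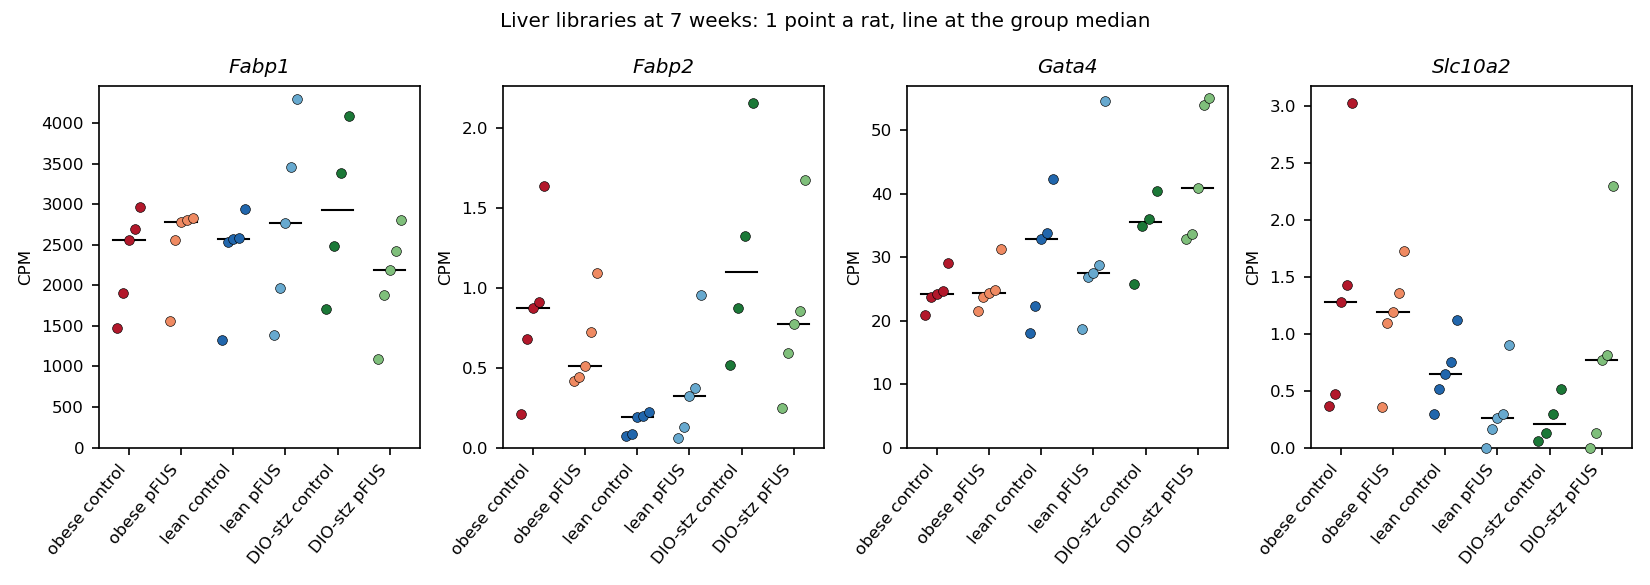
CPM of Fabp1, Fabp2, Gata4 and Slc10a2 in liver libraries of the 7-week groups on linear axes starting at 0, with 1 point for each rat and a line at the group median. Fabp2 lies at 0.0727 to 0.224 CPM in lean controls and at 0.209 to 1.64 CPM in obese controls, and the Fabp1 groups overlap.

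The kidney also expresses Slc10a2, in proximal tubules. It was 10.2 CPM in obese control 2 and 0.298 to 2.25 CPM in the other 9 obese kidneys, and differed with pFUS by -0.53 ± 0.72, beside 0.0973% of genes called. In DIO-stz kidneys Slc10a2 differed by 0.76 ± 0.68. Gata4 was 0.827, 0.824, 0.230 and 1.30 CPM in DIO-stz control kidneys and 0, 0, 0.373, 0.0570 and 0.151 CPM with pFUS. Its log2 difference was -2.78 ± 0.82 and did not pass (edgeR adjusted p = 0.219, beside 0.104% of genes called). The groups overlap in DIO-stz control 5 and DIO-stz pFUS 9.

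Elsewhere the genes were mostly at or near 0. Fabp6, Slc10a2 and Fabp2 were at 0 in all 31 blood libraries, and Gata4 in all 31 brain libraries. Gata4, which the pancreas also expresses, was 5.10 to 45.3 CPM in the 20 pancreas libraries. A few libraries of other tissues held intestinal genes. Pancreas of DIO-stz control 6 held 31.2 CPM of Lct, 13.7 of Fabp1, 2.91 of Fabp2 and 1.65 of Fabp6, where Fabp6 was at 0 in the other 19. Muscle of DIO-stz control 4 held 45.3 CPM of Fabp1 and 5.54 of Fabp2, and muscle of obese control 2 held 5.01 of Fabp6. Adipose tissue of DIO-stz control 6 held 8.51 CPM of Fabp6, which was at 0 in 36 of 48 adipose libraries.

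The deposited transcript counts add the form of each RNA. Lct, Fabp1, Fabp2 and Gata4 are each listed with 1 transcript. Fabp6 has 2, and 1 of them, ENSRNOT00000005205, took 99.9% of its counts in the intestine. Slc10a2 also has 2, and ENSRNOT00000057310 took 52.0% of its counts there (3755 counts). In the 6 libraries high in Fabp6 this share ran from 48.0% to 57.3%, and in the library labelled lean control 14, the deepest for Slc10a2, it was 51.4% (1436 of 2792 counts, Wilson 95% interval 49.6% to 53.3%). It was 37.6% (35.0% to 40.3%) of 1295 counts pooled over the 55 liver libraries and 52.6% (47.6% to 57.5%) of 390 counts over the 21 kidney libraries. The intervals cover counting error only, and not the estimated split of reads between transcripts.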

How the data were processed

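RNA of 8 tissues was sequenced, and the 29 intestine libraries are described with the 55 liver and 21 kidney libraries. Per the labels' protocols libraries of intestine, liver and kidney were made with a kit for mRNA that keeps the strand, and those of pancreas and adipose tissue with one for total RNA. The submitters' processing notes name STAR 2.5.3a, RSEM and the genome Rnor_6.0. They name no annotation release. The authors deposited expected counts per gene and per transcript, which are whole numbers in the files and not normalized, so a gene's count can include reads shared out between similar genes. CPM was computed here from a library's gene counts divided by their sum. TMM factors ran from 0.776 to 1.23 over the intestine libraries.

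Group differences were fitted on all genes with the R package edgeR (version 4.0.16, R 4.3.3), by robust quasi-likelihood F tests after TMM scaling. Low genes were dropped by filterByExpr (grouped, minimum count 10). The adjusted p follows Benjamini and Hochberg across every gene tested, and 0.05 was the threshold. The SE was obtained as |log2 fold change| / sqrt(F). The groups of a cohort shared a fit, and sex was a term for DIO rats, whose fit included the 2 Diet Resistant libraries. The alternatives included DESeq2 1.42.0, no filter, RLE factors, only the 2 groups compared, no sex term, male libraries, leaving out libraries with Fabp6 above 100 CPM, log2 Fabp6 as a covariate and leaving out each library. Leaving out libraries with Fabp6 above 1000 CPM, with acinar markers above 500 CPM, labelled obese control 5 or lean control 14, and combinations of these, was chosen after seeing the data. The tests were tried on simulated counts.

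The 6 genes and all lists were chosen with earlier results of these data known. Named genes were the 6, up to 4 of highest mean CPM per list and those past the threshold, the 5 highest and 5 lowest by rho with Fabp6, the 3 highest for Lct and Gata4, and the 3 largest changes each way per comparison; others are said to have been chosen after their values were seen. The lists named were ileal and bile acid, proximal, colon, brush border, lipid absorption, Fabp family, transcription factor and cell type markers. A few genes that these rules name are not reported here. Not in the table were Fgf15, Insl5, Sis, Cd36, Phgr1, Muc2, Lyz1, Insm1, Cd79a and Amy2a3. Promoter windows came from RefSeq (GRCr8), and no coordinates were taken to or from Rnor_6.0.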

Additional observations from a re-analysis of the deposited data

Results flagged for a closer look

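In groups of 4 to 10 libraries, a highest or lowest value far from the others was found for 11 of 54 combinations of gene, tissue and group. Chance flags about 1 in 20 groups, which is no yardstick for the 8 intestine values, since the genes were selected on intestinal levels that vary between libraries. In the intestine, Fabp6 stood apart in obese control 1 (5687 CPM) and in DIO-stz pFUS 9 (5425 CPM). Slc10a2 stood apart in obese control 1 (6.71 CPM), in the library labelled lean control 14 (161 CPM) and in DIO-stz pFUS 9 (33.9 CPM). Lct was far below the rest of its group in DIO-stz pFUS 9 (29.0 CPM) and far above it in obese control 4 (2205 CPM). Fabp1 was far above in DIO-stz control 5 (11611 CPM), the 1 control of that group with under 100 CPM of Fabp6. In the liver, Fabp1 was far below in lean control 15 (1324 CPM) and in obese pFUS 7 (1560.4 CPM), and Gata4 far above in lean pFUS 20 (54.7 CPM). Several of these are the same library, so they are not independent.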

How the results depend on the processing

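No paired analysis was possible because the groups compared share no replicate numbers. Counts of genes past the threshold are given for obese against lean controls, pFUS in obese rats, pFUS in lean rats, the difference of these effects, and pFUS in DIO-stz rats. DESeq2 called 144, 566, 19, 57 and 15 in the intestine, where edgeR called 2, 9, 1, 1 and 0. In the liver DESeq2 called 2497, 136, 1048 and 369 (all but the difference of effects) and in the kidney 90 (obese) and 417 (DIO-stz), where edgeR called 1632, 38, 7 and 129, and 13 and 15. With no filter on low counts 1 gene was called in the intestine between obese and lean controls, 23 in lean liver with pFUS and 23 in DIO-stz kidney. With only the 2 groups compared the intestine gave 0, 29 and 0 for the first 3 comparisons, the liver 1005 between obese and lean controls and 0 in lean rats, and DIO-stz kidney 0. With no sex term the DIO-stz liver gave 75 and the kidney 0, and with male libraries 1 and 0. Without libraries with Fabp6 above 100 or above 1000 CPM the first 4 intestine counts were 0, 359, 0 and 0. With Fabp6 as a covariate pFUS gave 14 in obese, 0 in lean and 1 (Reg3g) in DIO-stz rats. Without acinar markers above 500 CPM pFUS in obese rats gave 0. Without the libraries labelled obese control 5 and lean control 14 the first 3 counts were 198, 57 and 0. Without obese control 5 and those with Fabp6 above 1000 CPM the first 4 were 190, 332, 0 and 0, and without acinar markers and those with Fabp6 above 1000 CPM 0, 1, 0 and 0.

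Leaving out 1 library at a time gave 1 to 168 genes in the intestine between obese and lean controls (168 without lean control 15, 23 without obese control 5, 11 without lean control 14, 7 without obese control 1), 0 to 46 for pFUS in obese rats (46 without obese control 4, 18 without obese control 1), 0 to 173 in lean rats (173 without lean control 15), 1 to 2 for the difference and 0 to 0 in DIO-stz rats. The liver gave 1151 to 2039, 9 to 59 (59 without obese control 5, 9 without obese pFUS 10), 0 to 4888 (4888 without lean control 15) and 40 to 160 (40 without DIO-stz control 6). The kidney gave 5 to 19 in obese rats (5 without obese pFUS 6 or 10) and 0 to 164 in DIO-stz rats (164 without control 6, 82 without control 4).

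In liver and kidney some differences near 0 turned sign. Liver Fabp1 between obese and lean controls (0.02) was -0.001661 with DESeq2, -0.003597 with RLE factors and -0.006633 with no filter, and -0.16 to 0.16 without each library. Liver Fabp1 with pFUS was 0.0143 with no filter in obese rats (-0.14 to 0.17 without each library) and 0.0144 with male libraries in DIO-stz rats (-0.30 to 0.0168). Liver Fabp2 in DIO-stz rats was 0.00723 with DESeq2 and 0.00718 with RLE factors (-0.17 to 0.30). Without each library liver Slc10a2 in obese rats ranged from -0.50 to 0.27, liver Gata4 in lean rats from -0.0153 to 0.50 and kidney Slc10a2 in obese rats from -0.81 to 0.83. Liver Fabp2 between obese and lean controls stayed past the threshold under DESeq2, RLE factors, no filter and each library left out, and it was not tested with only the 2 groups, where it had too few counts. The fits with RLE factors and with each library left out used the filter, which the gene met mostly through the obese groups. The causes were not tested. Slc10a2 in kidney and Fabp2 in liver rest on few counts, which limits their precision.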
